A study of Mus musculus with 16 samples.

Results

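The genes described here are 10 imprinted mouse genes that act on growth or on fat tissue, namely Mest, Klf14, Peg3, Dlk1, Igf2, H19, Plagl1, Grb10, Cdkn1c and Nnat. The group was chosen by the low signals of Mest and Klf14, its chromosomal neighbour, on the arrays of fat lacking the glucocorticoid receptor; the other 8 were added as imprinted growth genes. The knockout difference of the pair is therefore a description and was not tested. Of the 10 genes, 9 had a probe that could be named by its RefSeq accession, with 14 probes in all, and all 9 passed the filter on dim probes, among 15469 genes tested. H19 was not analysed here. Grb10 had 3 probes, Igf2, Peg3 and Plagl1 had 2 each and the others 1, and the brightest probe stands for the gene.

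The samples were white and brown fat of male mice with an adipose-tissue-specific knockout of the glucocorticoid receptor gene Nr3c1 (AdipoKO) and of male controls (CTL), hybridised to one-colour Agilent whole-genome arrays. Each of the 4 groups (white knockout, white control, brown knockout, brown control) had 4 arrays, which the submitters describe as biological replicates. The age, the strain, the treatment and the promoter that drives recombination are not given in the sources used here. Arrays of one group that agreed within the error of the scanner were merged into 1 sample by averaging, which left 9 distinct samples from the 16 arrays: 2 white knockout, 2 white control, 2 brown knockout and 3 brown control samples. White knockout sample 1 and brown knockout sample 1 are 1 array each, while white knockout sample 2 and brown knockout sample 2 are the means of 3 arrays each. Whether merged arrays came from the same mouse was not tested. With so few samples, p-values measure only the spread between them.

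An imprinted gene is transcribed mainly from the copy inherited from one parent, owing to marks set in the germ line. Many such genes set the rate of growth before birth, and the level of several falls in most tissues after it; in fat, Dlk1 is known as a brake on the formation of fat cells. Mest is transcribed from the paternal copy, encodes an enzyme-like protein of the alpha/beta hydrolase fold, and is known in mice for levels that follow the expansion of fat depots. Klf14, on the same chromosome, is transcribed from the maternal copy and encodes a zinc-finger transcription factor that in humans is linked to fat distribution and fat-cell size. Arrays sum the transcripts of both copies, so parental origin was not measured, and in whole tissue fewer cells of a type and less RNA per cell cannot be told apart.

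The DNA before the start of Mest is shown first, because Mest is the gene around which the group was built, and its promoter is one of the classic imprinted CpG-rich regions. RefSeq (build GRCm38.p6) lists several starts; the 2 windows below, each 250 bases and on the plus strand, differ in how many CG dinucleotides they hold, which are in capitals. The upstream window, chr6:30733256-30733505, held 7 of them and was 60.8% G or C, and the downstream window, chr6:30737800-30738049, held 14 and was 62.4% G or C.
Mest, upstream start: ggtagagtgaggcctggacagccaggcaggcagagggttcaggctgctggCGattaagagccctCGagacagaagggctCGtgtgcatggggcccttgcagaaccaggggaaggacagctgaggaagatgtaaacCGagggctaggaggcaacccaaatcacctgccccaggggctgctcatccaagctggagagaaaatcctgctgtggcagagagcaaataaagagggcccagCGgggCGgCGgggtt
Mest, downstream start: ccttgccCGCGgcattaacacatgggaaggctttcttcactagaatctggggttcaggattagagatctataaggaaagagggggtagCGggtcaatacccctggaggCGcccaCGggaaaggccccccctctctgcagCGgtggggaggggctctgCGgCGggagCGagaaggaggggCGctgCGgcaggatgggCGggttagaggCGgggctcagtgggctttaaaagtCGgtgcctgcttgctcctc
Over all 32851 mouse windows of this length the median was 6 CG dinucleotides and 52.4% G or C. Among the 13 windows of the 7 members found in the table, 11 held more CG dinucleotides than that median. These windows are not all separate. A further Mest window, chr6:30737803-30738052, overlaps the downstream one almost wholly and is counted too, and Igf2 and Grb10 also have more than 1 window. DNA methylation was not measured in these samples.

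Both strands of the member windows were searched for 3 motifs. AGAACA, with its reverse TGTTCT, is the half-site of the glucocorticoid receptor; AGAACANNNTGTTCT is the full palindrome, which contains both half-sites; and GGGGCCCC is a sequence of the kind bound by Plagl1. The half-site occurred in 16.1% of all mouse windows, the palindrome in 0.00913% and GGGGCCCC in 0.889%. None of the 3 was found in the Mest windows, which concerns only these letters in these bases. Nnat held the half-site 106 bases before its start, Igf2 held it 85 bases before one of its starts, and Peg3 held GGGGCCCC 201 bases before its start. The Nnat window (chr2:157559828-157560077, plus strand) and the Peg3 window (chr7:6730420-6730669, minus strand) are printed because they hold these matches, which are in capitals.
Nnat: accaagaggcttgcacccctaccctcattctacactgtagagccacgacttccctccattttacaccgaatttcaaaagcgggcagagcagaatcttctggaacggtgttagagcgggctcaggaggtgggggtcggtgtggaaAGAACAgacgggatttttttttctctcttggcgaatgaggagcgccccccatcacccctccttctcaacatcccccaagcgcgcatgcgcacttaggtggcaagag
Peg3: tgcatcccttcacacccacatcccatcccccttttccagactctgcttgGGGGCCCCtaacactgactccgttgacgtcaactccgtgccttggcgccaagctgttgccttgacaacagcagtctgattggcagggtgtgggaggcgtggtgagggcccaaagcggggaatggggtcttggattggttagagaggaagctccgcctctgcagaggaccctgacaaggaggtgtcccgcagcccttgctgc
A match describes the letters only, since no binding was measured here.

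Levels are given as the log2 signal of a probe relative to the 75th percentile of its array, so that 0 is as bright as that percentile and a step of 1 is a 2-fold difference. They compare one probe between samples, never one gene with another. The knocked-out gene itself was examined first. Nr3c1 stood at 1.58 and 1.34 in the white knockout samples, against 2.49 and 2.21 in the white control samples, and at 1.57 and 1.76 in the brown knockout samples, against 2.53, 2.69 and 2.34 in the brown control samples. No knockout array reached a control array of its tissue, and the differences were -0.89 ± 0.23 (SE) in white fat and -0.85 ± 0.21 in brown fat, with limma adjusted p = 0.415 and 0.619. The other 3 probes of Nr3c1 differed by -1.10 to -0.23 (white fat) and by -0.81 to -0.35 (brown fat). Which exons were removed is not given in the sources used here, so a probe outside them would not check the labels.

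Mest was low in every knockout array of both tissues. In white fat it measured 0.90, -0.13, -0.04 and 0.05 on the knockout arrays, against 3.70, 3.39, 3.45 and 3.77 on the control arrays. No knockout array came near a control array: the mean difference was -3.15 ± 0.61 (SE; 2 distinct samples each), or 8.86-fold lower. White knockout sample 1 kept 15.6% of the control mean and sample 2 kept 8.16%.

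In brown fat Mest measured -0.42, 1.34, 1.39 and 1.33 on the knockout arrays, against 2.40, 2.31, 2.41 and 3.10 on the control arrays. The groups again did not overlap, and the mean difference was -2.16 ± 0.56 (SE; 2 and 3 distinct samples), or 4.45-fold lower. The brown knockout samples differed from each other: sample 1 kept 12.1% of the control mean and sample 2 kept 41.6%. Without brown knockout sample 1 the difference was -1.27, and without sample 2 it was -3.04. Ranked by size of the log2 difference, Mest was number 11 from the bottom of 15469 genes in white fat and number 25 in brown fat; it was chosen for this.

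Klf14 had a dim probe and was also lowest on the knockout arrays of each tissue. It measured -4.70, -5.32, -5.02 and -5.28 on the white knockout arrays, against -2.34, -2.95, -2.98 and -2.39 on the white control arrays. The probe was well above background on 2 of the 4 white knockout arrays and on all arrays of the other groups. The white difference was -2.29 ± 0.40 (SE), or 4.89-fold lower, and it came to -0.80 after normexp background correction. That method models the background of each array, and here an offset of 50 was also added to every signal. The offset by itself shrinks log2 differences of dim probes, and its part in the smaller value was not tested.

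In brown fat Klf14 measured -4.68, -3.78, -3.60 and -3.61 on the knockout arrays, against -2.65, -2.56, -2.49 and -2.27 on the control arrays. The brown difference was -1.69 ± 0.36 (SE), or 3.23-fold lower, and -1.19 after normexp correction. As with Mest, brown knockout sample 1 was the lower of the pair, at 21.8% of the control mean, with sample 2 at 44.1%; in white fat sample 1 stood at 24.4% and sample 2 at 17.1%. Slide 2 held 2 white knockout and 2 white control arrays and slide 4 the like for brown fat. Within these slides Mest differed by -3.23 in white fat and -2.30 in brown fat, and Klf14 by -2.33 and -1.85.

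**Figure D1:**
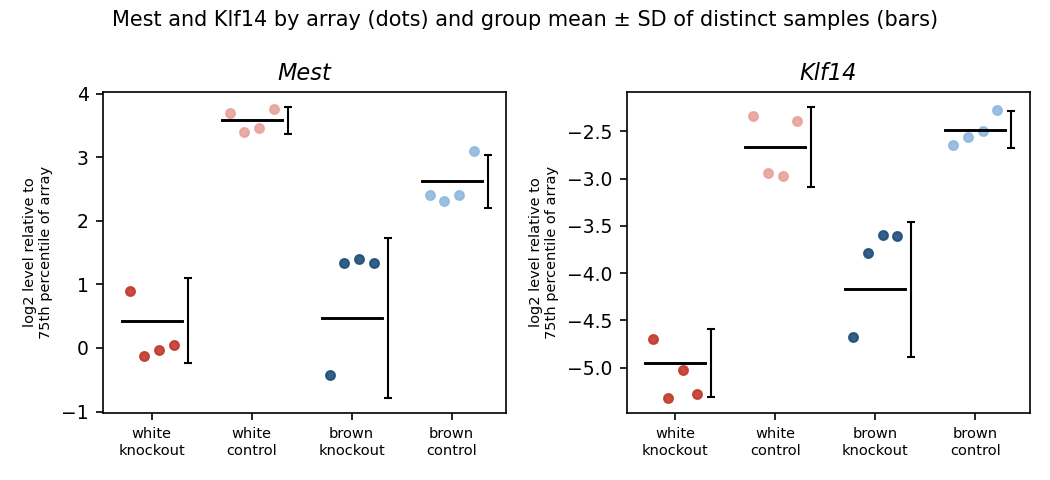
Levels of Mest (left) and Klf14 (right) on each of the 16 arrays (dots), as log2 signal relative to the array's 75th percentile, with the mean of the distinct samples (line) and its SD (bar beside it). All knockout dots lie below all control dots of their tissue, and brown knockout array 1 lies below the other brown knockout arrays for both genes.

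Klf14 lies close to Mest on chromosome 6. In RefSeq's order of protein-coding genes 2 genes stand between them: Copg2, which encodes a coat protein of transport vesicles, and Tsga13, which had no value. The stretch of 14 other genes around the pair was chosen after the values of Mest and Klf14 were known, and 10 of the 14 were measured. Their knockout differences ran from -1.80 to 0.43 in white fat and from -1.19 to 0.24 in brown fat. None of them passed the test in either tissue, where 0% of all genes did. Copg2, whose gene runs next to Mest, measured 1.02 and 0.72 in the white knockout samples and 1.33 and 1.12 in the white control samples, a difference of -0.36 ± 0.25 (SE, limma adjusted p = 0.594). In brown fat Copg2 measured 0.63 and 0.68 in knockout samples and 0.71, 0.49 and 1.01 in control samples, and the groups overlapped. Cep41, on the other side of Mest, encodes a centrosomal protein and differed by -0.29 ± 0.35 in white fat and 0.24 ± 0.32 in brown fat (limma adjusted p = 0.738 and 0.768). Podxl, a sialomucin of vessel and mesothelial surfaces, had the most negative white value of the 10, -1.80 ± 0.73 (limma adjusted p = 0.497). It measured -1.09 and -3.53 in the white knockout samples, against -0.39 and -0.64 in the white control samples, and white knockout sample 2 was far below the other 3.

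**Figure D2:**
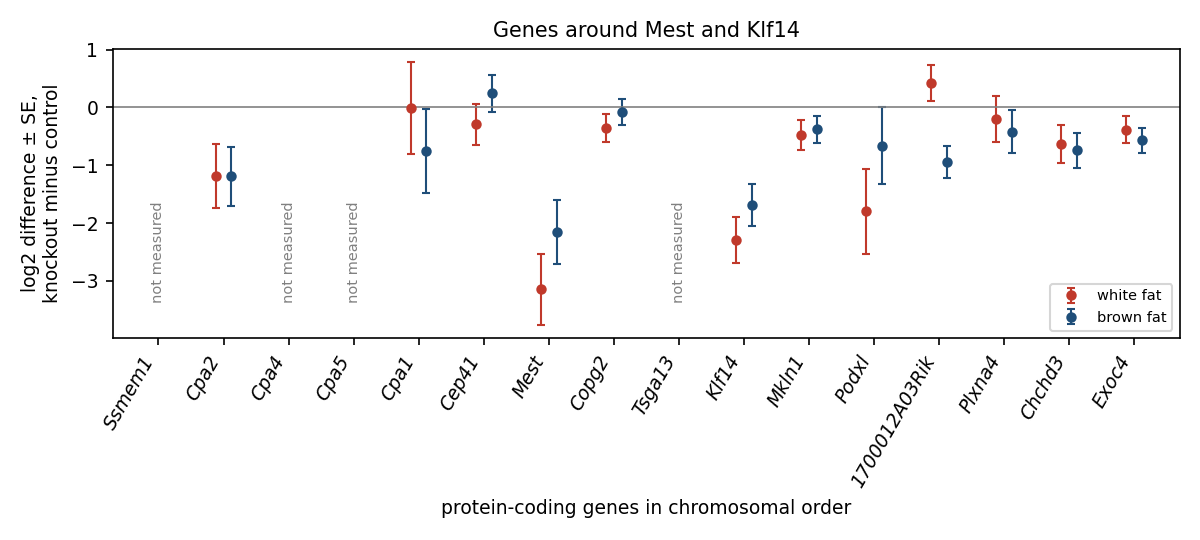
Knockout minus control difference in log2 level (± SE) for Mest, Klf14 and the protein-coding genes around them, in chromosomal order but not to scale, for white fat (red) and brown fat (blue). Mest and Klf14 have the most negative brown values, and in white fat only Podxl at -1.80 comes near Klf14 at -2.29.

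Of the other 7 measured members, none passed the test in either tissue: limma adjusted p ran from 0.525 to 0.987 in white fat and from 0.619 to 0.892 in brown fat, and no unadjusted p was below 0.05. No gene of the 15469 passed in these comparisons either (0% in each), although 9.96% had an unadjusted p below 0.05 in white fat and 7.04% in brown fat. All 7 had a negative white difference, with a median of -0.98 beside -0.03 over all genes, and 6 of 7 had a negative brown one, with a median of -0.37 beside -0.12 over all genes. White knockout arrays lay wholly below the white control arrays for 0 of the 7, where 18.3% of all genes had such arrays. In brown fat 2 of the 7 did, Igf2 and Cdkn1c, where 16.5% of all genes did. Mest and Klf14 did in both tissues, as 6.9% of genes did, but were chosen for it.

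The white knockout samples stood on opposite sides of the controls for most of these 7 genes. In white knockout sample 1 the 7 had a median of 0.39 relative to the control mean, and 5 of them (Peg3, Igf2, Plagl1, Grb10 and Nnat) lay above both white control samples. In white knockout sample 2 their median was -1.90, with a range of -2.84 to -1.30, and all 7 lay below both control samples. Over all genes, 43.4% lay below and 35.3% above the white controls in sample 1, and 49.0% below and 42.3% above in sample 2. The brown knockout samples split the same way by a smaller amount. They cannot be taken as independent of the white ones. Same-numbered knockout arrays of brown and white fat deviated together over all genes (r = 0.295 to 0.570), over 2 distinct samples per depot. Whether these came from the same mice was not tested. Brown sample 1 had a median of 0.04 and a range of -0.50 to 0.83, and brown sample 2 a median of -0.99 and a range of -1.47 to -0.18. In brown knockout sample 2 the genes Peg3, Igf2, Grb10, Cdkn1c and Nnat lay below all 3 control samples, and in brown knockout sample 1 Igf2 and Cdkn1c lay below and Peg3 and Plagl1 above. The shares over all genes were 28.4% below and 19.7% above in brown sample 1, and 44.8% below and 27.7% above in brown sample 2. Mest and Klf14 are the members that lay below the controls in all 4 knockout samples.

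**Figure D3:**
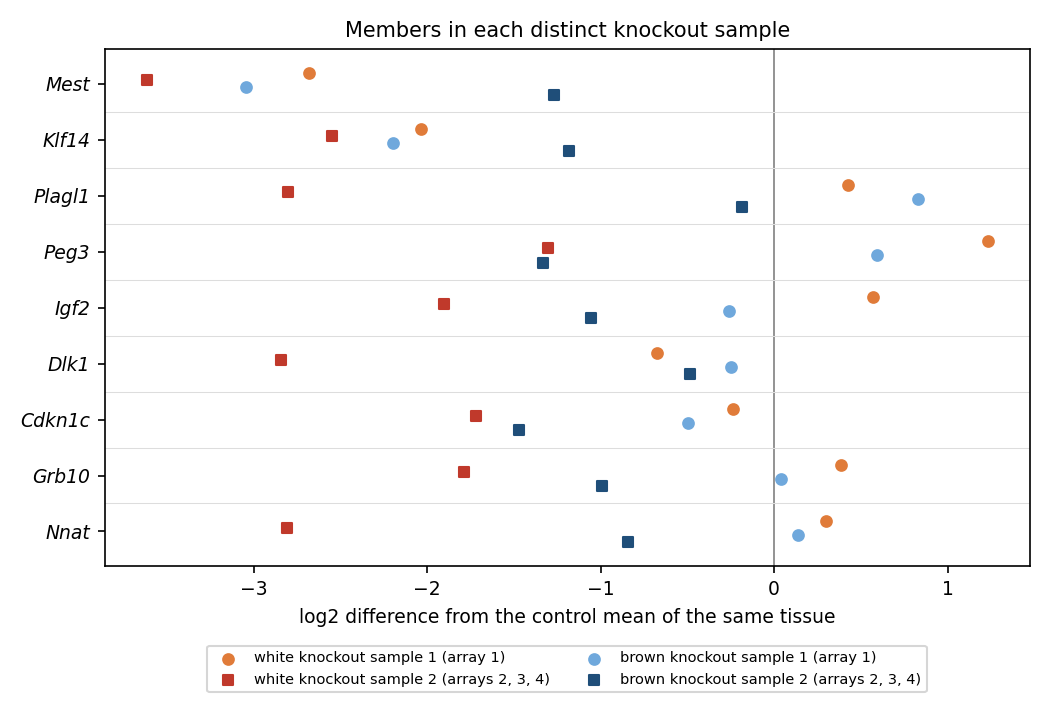
Log2 difference of each measured member from the control mean of its tissue in the 4 distinct knockout samples. Mest and Klf14 lie left of 0 in every sample, while most other members lie near or right of 0 in sample 1 of each tissue (circles). Dlk1 at -0.68 in white sample 1 and Cdkn1c at -0.50 in brown sample 1 lie left of it. In white sample 2 (red squares) the other members lie between -2.84 and -1.30.

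Among the secreted and membrane-bound members, Igf2 encodes insulin-like growth factor 2, a ligand that drives fetal growth. It measured 1.23 and -1.24 in the white knockout samples, on either side of the white control samples at 0.56 and 0.77. The white difference was therefore small beside its error, -0.67 ± 0.73 (SE, limma adjusted p = 0.711), and it became 0.57 with white knockout sample 1 alone. Brown fat gave 0.54 and -0.26 in knockout samples, against 0.71, 1.05 and 0.63 in control samples. Here the groups did not overlap, with a difference of -0.66 ± 0.66 (limma adjusted p = 0.697). The second Igf2 probe gave -0.70 in white fat and -0.68 in brown fat.

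Dlk1, a membrane protein of the Notch-ligand family that is released from preadipocytes and restrains their differentiation, had a dim probe. It measured -3.04 and -5.20 in the white knockout samples and -1.57 and -3.16 in the white control samples. Knockout sample 1 lay between the control samples, which themselves stood far apart. The white difference of -1.76 ± 0.86 (SE) did not pass the test (limma adjusted p = 0.525). It was -0.81 after normexp correction, and without one sample at a time it ran from -2.84 (white knockout sample 1 left out) to -0.68 (sample 2 left out). In white knockout fat the Dlk1 probe was well above background on 2 of 4 arrays. Brown fat gave -4.11 and -4.35 in knockout samples and -4.06, -4.57 and -2.95 in control samples, which overlapped, with a difference of -0.36 ± 0.78 (limma adjusted p = 0.858).

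Grb10 encodes an adaptor that binds the insulin and IGF1 receptors and dampens their signal. It measured 2.79 and 0.62 in the white knockout samples, on either side of the white control samples at 2.48 and 2.32. Its white difference was -0.70 ± 0.67 (SE, limma adjusted p = 0.677). Brown fat gave 2.21 and 1.18 in knockout samples, against 2.14, 2.28 and 2.09 in control samples, a difference of -0.48 ± 0.61 (limma adjusted p = 0.759). Only brown knockout sample 2 stood apart from the controls. The 3 probes of Grb10 ran from -0.70 to -0.05 for the white difference and from -0.62 to -0.08 for the brown one.

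The zinc-finger members Peg3 and Plagl1 split widely between knockout samples. Peg3, a large zinc-finger protein transcribed from the paternal copy, measured -0.53 and -3.06 in the white knockout samples and -1.79 and -1.73 in the white control samples. The knockout samples lay 1.23 above and 1.30 below the control mean, and the white difference was -0.04 ± 0.87 (SE, limma adjusted p = 0.987). Brown fat repeated the layout, with -1.04 and -2.96 in knockout samples and -1.48, -1.92 and -1.49 in control samples, and a difference of -0.37 ± 0.80 (limma adjusted p = 0.858). The second Peg3 probe gave -0.58 in white fat and -0.29 in brown fat.

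Plagl1, a zinc-finger factor that restrains cell division and is known to regulate other imprinted genes, measured 2.29 and -0.94 in the white knockout samples and 1.79 and 1.93 in the white control samples. The white difference was -1.19 ± 0.97 (SE, limma adjusted p = 0.640). In brown fat it measured 1.58 and 0.57 in knockout samples, against 0.36, 0.49 and 1.41 in control samples. It was the one member with a positive brown value, 0.32 ± 0.88 (limma adjusted p = 0.892), but its probes disagreed. The second probe, which was far dimmer, gave -0.41 in brown fat and -0.30 in white fat. On the arrays merged into white knockout sample 2 that probe scattered, at -5.33, -3.565 and -4.34.

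Cdkn1c encodes p57, an inhibitor of the kinases that drive the cell cycle, transcribed from the maternal copy. It was below all controls in both brown knockout samples, at 2.52 and 1.55 against 2.85, 2.90 and 3.31, a difference of -0.98 ± 0.53 (SE, limma adjusted p = 0.619). In white fat it measured 2.35 and 0.87 in knockout samples and 2.12 and 3.05 in control samples. Knockout sample 1 fell between the controls, and the difference was -0.98 ± 0.58 (limma adjusted p = 0.561). Nnat, a small proteolipid of the endoplasmic reticulum transcribed from the paternal copy, measured 3.65 and 0.55 in the white knockout samples and 3.54 and 3.17 in the white control samples, a difference of -1.25 ± 0.90 (limma adjusted p = 0.609). In brown fat it measured 2.93 and 1.95 in knockout samples and 3.10, 2.56 and 2.73 in control samples, which overlapped, a difference of -0.35 ± 0.82 (limma adjusted p = 0.870).

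**Figure D4:**
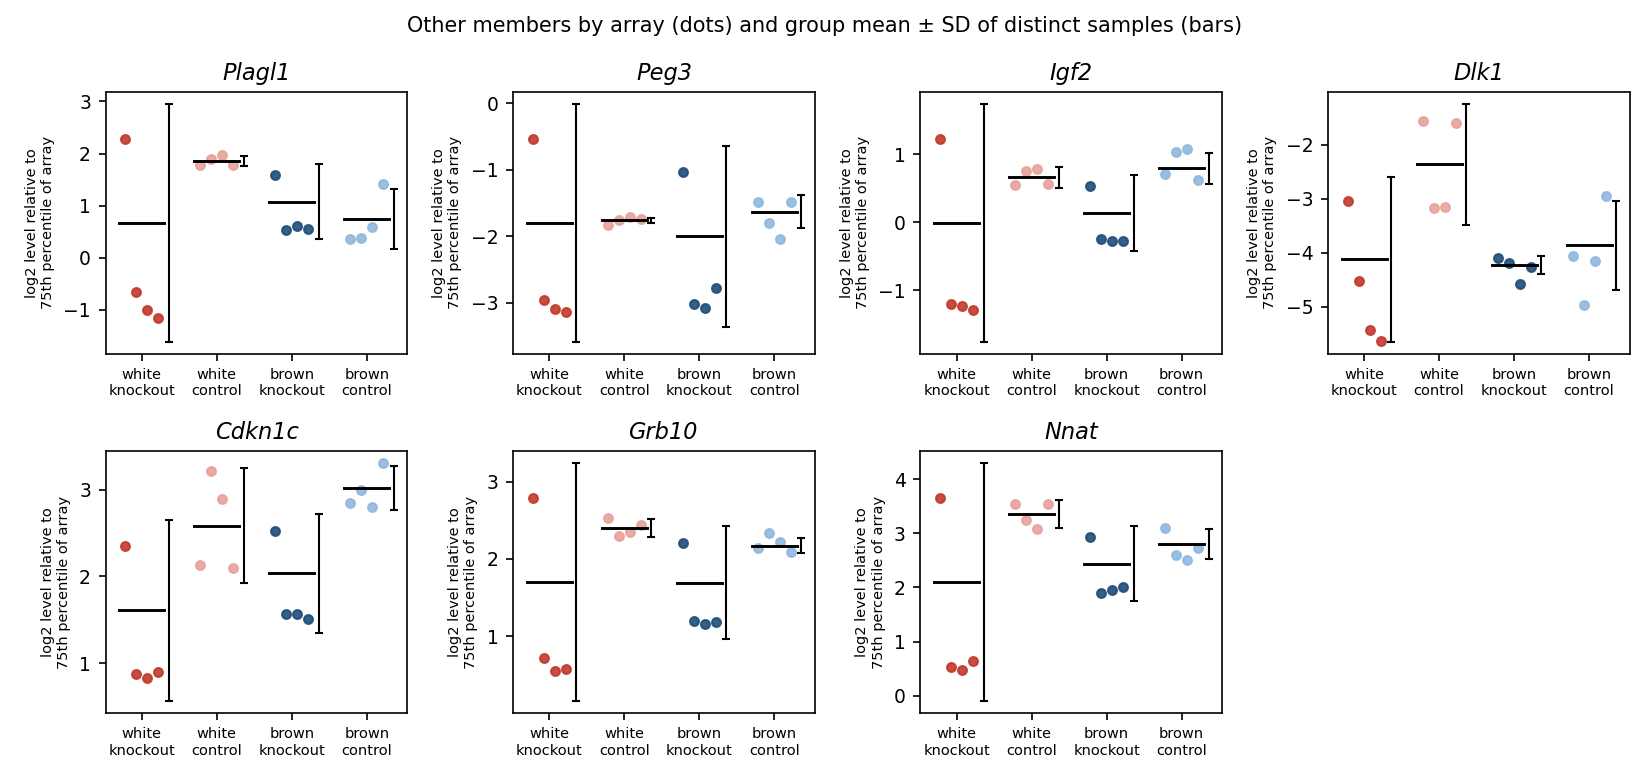
Levels of the 7 measured members other than Mest and Klf14 on each array (dots), as log2 signal relative to the array's 75th percentile, with the mean of the distinct samples (line) and its SD (bar beside it). The single high dot of each white knockout group is sample 1, and the 3 low dots are the arrays merged into sample 2, as for Nnat at 3.65 and 0.55.

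Markers of other cell types moved with the same samples. The 20 measured markers of mature fat cells had a median difference from the controls of -0.17 in white knockout sample 1 and -1.77 in sample 2, and of -0.11 in brown knockout sample 1 and -0.46 in sample 2. Their summed level, in multiples of the array's 75th percentile, was 3001 and 1472 in the white knockout samples, against 3430 and 2899 in the white control samples. In brown fat it was 2294 and 1840 in knockout samples, against 2783, 2265 and 2735 in control samples. All 20 were well above background in every sample.

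The 11 mesothelial markers had a median of 0.16 in white knockout sample 1 and -3.58 in sample 2, with summed levels of 36.1 and 2.99, against 41.3 and 22.1 in the white control samples. Among them 1 marker in white knockout sample 2 and none in the other white samples was not well above background. In brown fat the sums were 115 and 22.1 in knockout samples and 50.5, 107 and 22.5 in control samples, and 3 or 4 of the 11 markers were not well above background. For 19 markers of T, B and NK cells the median was -0.87 and 2.99 in the white knockout samples and 2.87 and 4.72 in the brown knockout samples. Their summed level was 31.0 and 280 in the white knockout samples, against 13.4 and 58.9 in the white control samples, and 48.1 and 156 in the brown knockout samples, against 40.0, 5.57 and 2.83 in the brown control samples. Markers of dividing cells had medians of -0.55, 2.81, 1.53 and 2.57 in the knockout samples (white 1, white 2, brown 1, brown 2) and progenitor markers -0.33, -0.97, -0.06 and -0.50. For vessel lining these medians were -0.24, -0.86, -0.25 and -0.56, for macrophages -0.69, 0.30, -0.77 and 0.03, for muscle -0.42, 1.65, -0.37 and -1.33, for nerve 2.05, -0.45, -0.07 and -0.16, and for brown fat cells 0.21, -0.95, -0.11 and -0.64. The sample in which the 7 members were lowest, white knockout sample 2, was also the one with the lowest fat-cell and mesothelial sums and the highest lymphocyte sum, and the part of these cells in the members' levels was not tested. White knockout sample 1, a single array, had a fat-cell sum of 3001, between those of the white controls. In it 12 of the 20 fat-cell markers lay below the control mean, and the median difference of the 20 was -0.17. Retn, named because it had the smallest knockout p of that list, is not typical of it. It stood at 4.91 against 7.03 and 6.61. Mest and Klf14, chosen for low knockout signals, stood there at 15.6% and 24.4% of the control means. The part of fat cells in these 2 levels was not tested.

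**Figure D5:**
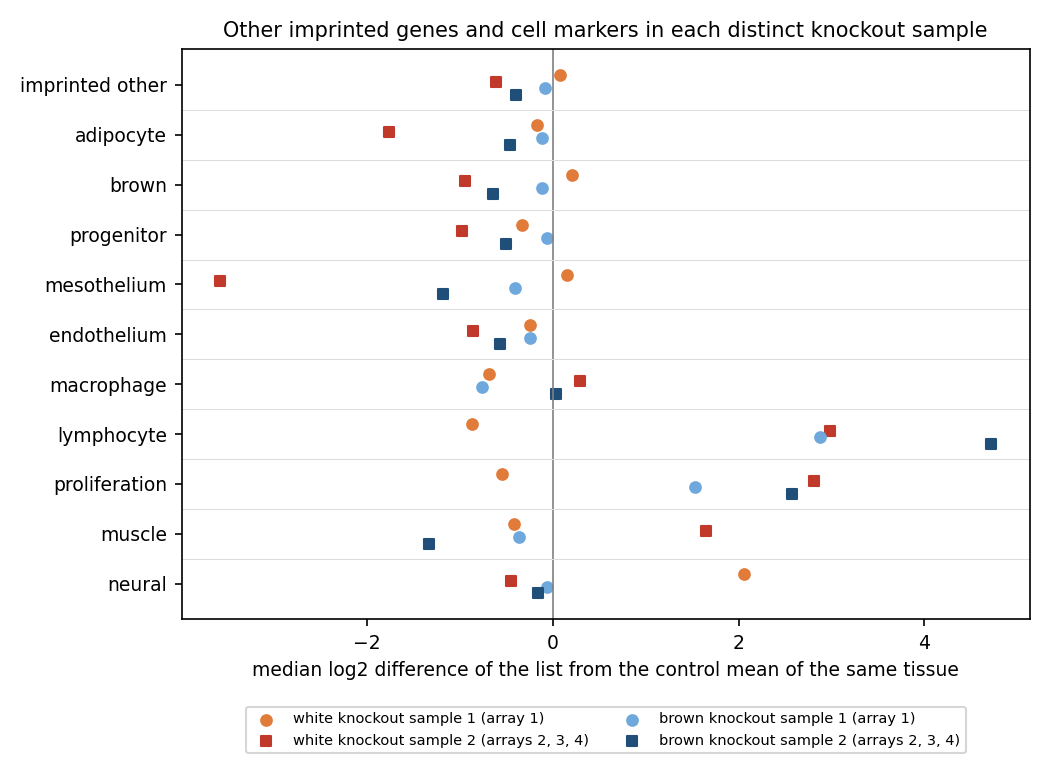
Median log2 difference of each gene list from the control mean of its tissue in the 4 distinct knockout samples. White knockout sample 2 (red squares) lies at -3.58 for mesothelium, -1.77 for fat cells and 2.99 for lymphocytes, while its other imprinted genes have a median of -0.61.

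Other imprinted genes gave the wider background. Of 65 listed, 54 were measured, and none passed the test for the knockout in either tissue, where 0% of all genes did. In white fat 33 of 54 were negative and in brown fat 35 of 54. Their median was -0.23 in white fat and -0.22 in brown fat. By knockout sample it was 0.08 in white sample 1, -0.61 in white sample 2, -0.08 in brown sample 1 and -0.40 in brown sample 2, the same order as the members. The smallest p in white fat belonged to Ddc, which encodes the decarboxylase that makes dopamine and serotonin, at 2.36 ± 0.56 (SE, limma adjusted p = 0.394). In brown fat it belonged to Inpp5f, a phosphoinositide phosphatase, at 0.69 ± 0.20 (limma adjusted p = 0.619).

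Partners of the members in their pathways also gave no call for the knockout, where 0% of all genes were called in either tissue. Of 14 measured genes of the insulin-like growth factor axis, 12 were negative in white fat, with a median of -0.46, and 9 in brown fat, with a median of -0.20. Igf1r, the receptor through which Igf2 signals, had the smallest white p, at 0.70 ± 0.29 (SE, limma adjusted p = 0.4998), and Igfbp3, a carrier of the growth factors, the smallest brown one, at 0.68 ± 0.41 (limma adjusted p = 0.619). Of 17 Notch pathway genes, 12 were negative in white fat and 10 in brown fat. In both tissues Dll4, a Notch ligand of growing vessels, had the smallest p, at -0.69 ± 0.23 and -0.74 ± 0.21 (limma adjusted p = 0.447 and 0.619). Among the 6 cell-cycle inhibitors measured besides Cdkn1c, 3 were negative in white fat and 2 in brown fat; Cdkn2b, which encodes p15, differed by -0.85 ± 0.36 in white fat (limma adjusted p = 0.501) and Cdkn3, a phosphatase of cyclin-dependent kinases, by 1.60 ± 0.84 in brown fat (limma adjusted p = 0.619). Of 15 relatives of Klf14, 9 were negative in white fat and 10 in brown fat, with medians of -0.04 and -0.19. The smallest p values belonged to Klf16 in white fat, 0.63 ± 0.32, and to Klf2 in brown fat, -0.47 ± 0.19 (limma adjusted p = 0.528 and 0.619), both transcription factors of the same family.

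The genes whose levels most resembled those of Mest over the 9 distinct samples were Golga7b (Pearson r = 0.984), Hacd2 (0.973), Retn (0.972), Ppp2r5b (0.962) and G6pdx (0.957), out of 15449 compared. The 9 samples fall into the 4 groups, and share their libraries with every gene, so r is a description with no p. Retn, the adipokine resistin, measured 4.91 and 3.95 in the white knockout samples and 7.03 and 6.61 in the white control samples, and G6pdx, the first enzyme of the pentose phosphate pathway, 4.29 and 3.75 against 5.91 and 5.50. Hacd2, an enzyme of fatty acid elongation, measured -0.66 and -1.57 against 1.17 and 0.74. Klf14 was number 49 on that list (r = 0.916). Both genes were chosen for low knockout signals, so a high r between them was favoured by the choice. Nearest to Klf14 were Mlxipl (r = 0.972), Nr3c1 itself (0.956), Col5a3 (0.954), Brox (0.954) and Phlda3 (0.949), with Mest at number 26. Mlxipl, the glucose-sensing transcription factor ChREBP, measured 3.79 and 3.34 in the white knockout samples and 5.57 and 4.84 in the white control samples. The other 7 members, which were added as imprinted growth genes and not for such signals, had r with Mest from 0.07 for Peg3 to 0.66 for Dlk1.

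Between the depots, no member passed the test in either genotype over the 9 distinct samples. In knockout mice 233 genes passed (1.51%) and 0 of the 9 members, with limma adjusted p from 0.408 to 0.998. In control mice 788 genes passed (5.09%) and again 0 of 9, with adjusted p from 0.307 to 0.929; no member had an unadjusted p below 0.05 in either, where 15.3% and 22.8% of all genes did. With the knockout samples taken as pairs of brown and white fat, 624 genes passed in knockout mice (4.03%) and 1906 in control mice (12.3%), and again no member did. Mest averaged 0.47 ± 1.26 in brown and 0.43 ± 0.66 in white fat of knockout mice (SD, n = 2 each), a difference of 0.04 ± 0.61 (SE). In control mice it averaged 2.62 ± 0.42 in brown fat (n = 3) and 3.58 ± 0.22 in white fat (n = 2), a difference of -0.96 ± 0.56 (SE, limma adjusted p = 0.354), and the arrays did not overlap. The order of the 4 group means was thus white control, brown control, brown knockout and white knockout, and the last pair did not differ beyond their spread.

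Klf14 averaged -4.17 ± 0.72 in brown and -4.95 ± 0.36 in white fat of knockout mice, and all brown arrays lay above the white ones, a difference of 0.78 ± 0.40 (SE, limma adjusted p = 0.408). Sample 1 of each depot was nearly equal, at -4.68 in brown and -4.70 in white fat, and with these alone the difference was 0.019. Leaving out a single sample gave 0.27 (without brown knockout sample 2) to 1.29 (without brown knockout sample 1), and normexp correction 0.065. Arrays of the depots did not overlap for 1 of 9 members in this direction, beside 13% of all genes. In control mice Klf14 averaged -2.48 ± 0.19 in brown fat and -2.66 ± 0.42 in white fat, an overlap. Mest and Plagl1, 2 of 9 members, had brown control arrays that all lay below the white control arrays, beside 26.2% of all genes. Dlk1 averaged -3.86 ± 0.83 in brown and -2.36 ± 1.12 in white control fat, a difference of -1.50 ± 0.78 (SE, limma adjusted p = 0.307). That value was -0.33 after normexp correction and -0.40 with the slide as a fixed term. No gene passed the test of whether the knockout difference itself differed between brown and white fat (0%), and 2.60% had an unadjusted p below 0.05.

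Of the 54 other imprinted genes, 2 passed between depots of control mice, both higher in brown fat, a share no larger than the 3.95% of all genes. Asb4, a subunit of a ubiquitin ligase encoded in the imprinted cluster of Peg10, differed by 4.16 ± 0.55 (SE, limma adjusted p = 0.00823), and Slc38a4, an amino acid transporter, by 4.20 ± 0.77 (adjusted p = 0.0291). In knockout mice none of the 54 passed, where 1.29% of all genes were higher in brown fat, and Asb4 differed by 3.13 ± 0.60 (adjusted p = 0.0605, or 0.0244 with the knockout samples as pairs). Of the insulin-like growth factor axis, 1 of 14 passed in control mice, the binding protein Igfbp7 at -0.95 ± 0.20 (adjusted p = 0.0436), and of the Notch genes 1 of 17, the transcriptional repressor Hey2 at -2.58 ± 0.45 (adjusted p = 0.0247); 1.14% of all genes passed in that direction. No gene of these lists, of the cell-cycle inhibitors or of the Klf family passed in knockout mice without the pairing. With it, a pairing added after seeing the data, Asb4 and Gatm passed in knockout mice, where 4.03% of all genes did. In control mice 5 of 54 other imprinted genes, 4 of 14 of the growth factor axis and 2 of 17 Notch genes passed. So did 1 of 6 cell-cycle inhibitors and 2 of 15 Klf genes, beside 12.3% of all genes. As a check of the depots, 3 of 12 brown fat cell markers were higher in brown fat in each genotype (5 in control mice with the pairing), among them Cox7a1, a mitochondrial subunit, by 5.44 ± 0.52 in knockout mice and 5.98 ± 0.47 in control mice (adjusted p = 0.00352 and 0.000829). All 15 skeletal muscle markers were higher in brown fat in both genotypes, with summed levels of 3705 and 2265 in brown knockout samples and 5008, 5029 and 4069 in brown control samples, while white samples lay between 4.45 and 13.5.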

How the data were processed

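RNA of white and brown fat was hybridised to one-colour Agilent arrays and scanned with Agilent Feature Extraction 12.0.0.7, per the submitters' processing notes. The deposited scanner files give each spot's intensity after background subtraction, per the file headers. The deposited value table holds the same intensity (largest relative difference 5e-06). Outlier spots were left out and spots of a probe averaged. Log2 levels were taken relative to each array's 75th percentile, computed here from the deposited intensity. Accessions named 28223 of 41174 probes (RefSeq table of GRCm38.p6), and 22700 of these were kept because all arrays of some group showed them well above background. Between 67.3% and 77.0% of spots were well above background per array, and the small number of arrays limits precision.

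Of 24 pairs of arrays within groups, 9 differed by less than the scanner's error over 10067 bright probes (ratios of 0.373 to 0.656, against 1.10 to 4.28 for the others); these were averaged, giving 9 samples. One limma 3.58.1 model (R 4.3.3) fitted the 4 group means over 15469 genes with 5 residual degrees of freedom and Benjamini-Hochberg adjustment. It was run on simulated data with planted differences, in which the spread of each gene was capped. The cap was below the SD of Mest in white and brown knockout samples (0.66 and 1.26), so that run does not show the power in these data. A call is an adjusted p below 0.05.

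Members and lists were chosen with earlier results of these data known. Named besides the members are Nr3c1, up to 2 called genes each way per list and comparison (or the smallest p), chromosomal neighbours, and the 5 genes most correlated with Mest and with Klf14; marker lists are named by a few of these. Replicate numbers were checked as pairs: only knockout arrays of brown and white fat with the same number correlated above 0.1 throughout, over 2 distinct samples per depot, so a fit with these as pairs was added after seeing the data. Alternatives were other backgrounds, scalings, filters, probe rules, slide and replicate blocks, and left-out samples. The normexp alternative used the median spot signal and an offset of 50, which shrinks log2 differences of dim probes.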

Additional observations from a re-analysis of the deposited data

How the results depend on the processing

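Counts of called genes depended on which arrays were taken as samples, and the cause was not tested. Treating the 16 arrays as separate samples gave 6929 genes called for the knockout in white fat, 4736 in brown fat, 3988 and 6083 between brown and white fat of knockout and control mice, and 640 for the difference between tissues. Adding the replicate block gave 7125, 4982, 3912, 6186 and 325; the numbers do not pair knockout with control arrays, which correlated from -0.519 to 0.412 in white fat and from -0.538 to -0.041 in brown fat, nor control arrays of the depots (-0.130 to 0.183). Taking the distinct knockout samples of brown and white fat as pairs, a replicate block chosen after seeing the data, gave 0, 0, 624, 1906 and 0, and changed the call of no member. The slide as a random block gave 6989, 4737, 4045, 6139 and 678, and as a fixed term 194 in white fat and 1 in brown fat. All these counts except those of the pairs take arrays that agreed within the scanner's error as independent. Without scaling, 479 of 937 calls between depots of control mice were higher in brown fat, beside 611 of 788. Requiring probes well above background on all arrays gave 102 and 481 calls between depots of knockout and control mice. Taking the 4 white control arrays as 1 sample, an alternative chosen after seeing the data, gave 140 and 170. Leaving out both 3-array knockout samples together, the counts were 143, 0, 905, 2346 and 9. Leaving out each distinct sample gave 0 to 1707 calls in white fat (1707 without white knockout sample 1 and 123 without sample 2), 0 to 1 in brown fat, 112 to 1030 and 178 to 1769 between depots, and 0 to 48 for the difference between tissues.

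Mest and Klf14, chosen for their negative knockout differences, kept that sign under every alternative run. The range was -3.62 to -1.27 for Mest and -2.59 to -0.80 for Klf14, with -0.80 in white fat after normexp correction. Because of the choice, the kept sign is a description and not a test. Without one sample, Mest ran from -3.62 to -2.68 in white and -3.04 to -1.27 in brown fat, and Klf14 from -2.59 to -1.99 and -2.20 to -1.18. Klf14 and Dlk1 have no value under the all-arrays filter. The other members' signs turned as follows. In white fat the knockout differences ran, over the left-out samples, from -1.30 to 1.23 (Peg3), -1.90 to 0.57 (Igf2), -2.80 to 0.43 (Plagl1), -1.79 to 0.39 (Grb10) and -2.81 to 0.30 (Nnat), and without the 3-array samples they were 1.23, 0.57, 0.43, 0.39 and 0.30. In brown fat they ran from -1.33 to 0.59 (Peg3), -0.72 to 0.089 (Dlk1), -0.18 to 0.83 (Plagl1), -0.99 to 0.038 (Grb10) and -0.84 to 0.13 (Nnat), and without the 3-array samples Peg3, Grb10 and Nnat were 0.59, 0.038 and 0.13. Brown minus white in knockout mice ran from -0.85 to 0.93 (Mest), -1.47 to 1.06 (Peg3), -1.19 to 0.98 (Dlk1), -1.09 to 1.38 (Igf2), -1.21 to 2.02 (Plagl1), -1.09 to 1.08 (Grb10), -0.31 to 1.17 (Cdkn1c) and -1.21 to 1.89 (Nnat). Without the 3-array samples Mest, Igf2, Plagl1 and Nnat were -1.32, -0.69, -0.70 and -0.72. In control mice Klf14 ran from -0.12 to 0.48 and Cdkn1c from -0.034 to 0.90.

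With normexp, Peg3 was 0.10 in white fat. Without scaling, which moved the median of all genes to 0.31 in brown fat and -0.23 in white fat, the brown knockout differences of Peg3, Dlk1 and Nnat were 0.059, 0.065 and 0.075. Brown minus white was then 0.083, 0.18 and 0.28 for Peg3, Dlk1 and Grb10 in knockout mice and -0.16, -0.21 and -0.21 for Klf14, Peg3 and Igf2 in control mice. With the mean of a gene's probes Plagl1 was -0.043 in brown fat, and Peg3 and Plagl1 were 0.058 and -0.12 between depots of knockout mice. With 16 separate arrays, with or without the replicate block, Dlk1 and Grb10 were 0.38 and 0.28 there, with the slide as a random block 0.38 and 0.28, and with it as a fixed term Peg3, Dlk1 and Grb10 were 1.21, 0.43 and 1.22. In control mice the fixed slide term gave 0.39, 1.04 and 1.07 for Plagl1, Grb10 and Nnat. With 16 separate arrays, which takes arrays that agreed within the scanner's error as independent, Dlk1, Igf2, Plagl1, Grb10, Cdkn1c and Nnat passed the test in white fat. There 6929 of all 15469 genes did. Cdkn1c passed in brown fat, where 4736 of all genes did. Without white knockout sample 1, the white differences of Igf2, Plagl1, Grb10 and Nnat were -1.90, -2.80, -1.79 and -2.81, with 1 knockout sample left. Between depots, 16 separate arrays also called Klf14 in knockout mice (limma adjusted p = 0.00318), beside 3988 of all 15469 genes. In control mice they called Mest and Dlk1 (limma adjusted p = 0.0388 and 0.0317), beside 6083 of all genes. Dim probes limit Klf14 and Dlk1.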

Other observations

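A dim probe of Grb10, not the one that stands for the gene, measured -2.56 on brown control array 3 and -4.59 on array 2 of the same distinct sample. On the other 14 arrays it lay between -5.50 and -4.22.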
